A study of Mus musculus with 7 samples.

Results

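Macrophage and monocyte transcripts were measured in eosinophils sorted from damaged mouse muscle, with 32 genes taken by symbol from the 24421 genes of the count table. The genes are markers of monocytes, of resident macrophages and of macrophages of tissue repair, and all 32 were present in the table and passed the filter on low counts. Cells had been sorted from digested muscle 3 days after ntx, whose full name is not in the labels. The gate took SiglecF+ CD45+ cells, removed cells with NK1, Ly6G or CD3e, and had a CD11b setting written as CD11bing. The comparison was between 3 libraries labelled WT and 4 labelled IL5-Tg, which carry a transgene for IL-5, the cytokine that drives eosinophil production. The series title concerns mdx mice, a model of Duchenne muscular dystrophy, but the sample labels give WT or IL5-Tg as the only genotype, and they state neither age nor the promoter of the transgene. Whether each library is a mouse of its own is not stated either, and the p-values then cover the spread among these 7 libraries alone. Selection for SiglecF leaves out cells without it, and the cells removed by other markers were NK cells, neutrophils and T cells.

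Macrophages in injured muscle come from blood monocytes and from resident cells. Monocytes enter through the chemokine receptor CCR2, depend on signals of the receptor CSF1R, and mature into cells that make complement C1q, clear dead cells through MERTK and AXL, and handle the lipid of engulfed debris with genes such as Apoe, Trem2 and Gpnmb. Resident macrophages of connective tissue are known for Lyve1, Folr2, Mrc1 and Cd163. Several of the 32 genes are not limited to macrophages. Tyrobp and the Fc receptor chains are used by many myeloid cells, Lpl and Fabp5 by fat and other cells, and Gas6, Axl, Lpl and Apoe by stromal cells. In bulk RNA, fewer macrophages and less RNA per macrophage cannot be told apart.

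The 3 C1q genes lie side by side on chromosome 4 (mm10, GENCODE vM21), C1qb at 136880129 to 136886187, C1qc at 136889804 to 136893065 and C1qa at 136895917 to 136898803, all on the minus strand. The 250 bases before the RefSeq start (GRCm38.p6) are shown for C1qb and C1qc, whose levels followed each other across libraries, for Fcgr3, which was even across the WT libraries, and for Gpnmb, which was not. Each is written 5′ to 3′ on the strand of its gene. The table has another Fcgr3 start 9 bases away. The Fcgr3 window lies wholly inside the GENCODE span of Fcgr3, 171051174 to 171064935 on chromosome 1. The C1qc window reaches into the GENCODE span of C1qc. The GENCODE starts of Fcgr3 and C1qc lie upstream of the RefSeq starts used. Capitals mark matches, on either strand, to GAGGAA (the core of PU.1 sites), TGCTGA (a half-site of MAF proteins) and TCATGTG (the M-box of MITF and TFE factors). No match overlapped another.
C1qb promoter, chr4:136886201-136886450, minus strand: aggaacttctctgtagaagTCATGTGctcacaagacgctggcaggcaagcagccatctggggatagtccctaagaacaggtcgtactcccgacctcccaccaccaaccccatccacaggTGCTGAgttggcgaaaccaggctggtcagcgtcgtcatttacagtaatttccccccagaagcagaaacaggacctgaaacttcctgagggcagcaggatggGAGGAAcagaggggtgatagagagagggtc
C1qc promoter, chr4:136892915-136893164, minus strand: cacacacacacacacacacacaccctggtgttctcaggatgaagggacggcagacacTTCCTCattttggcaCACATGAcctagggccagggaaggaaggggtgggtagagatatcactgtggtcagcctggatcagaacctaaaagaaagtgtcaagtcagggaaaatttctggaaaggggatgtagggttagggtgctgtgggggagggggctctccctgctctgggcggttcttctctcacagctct
Fcgr3 promoter, chr1:171059404-171059653, minus strand: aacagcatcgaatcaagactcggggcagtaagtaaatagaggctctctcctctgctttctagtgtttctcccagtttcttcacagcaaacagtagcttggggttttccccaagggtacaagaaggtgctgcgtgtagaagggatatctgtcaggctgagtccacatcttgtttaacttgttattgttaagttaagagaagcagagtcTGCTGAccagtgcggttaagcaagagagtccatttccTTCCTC
Gpnmb promoter, chr6:49036268-49036517, plus strand: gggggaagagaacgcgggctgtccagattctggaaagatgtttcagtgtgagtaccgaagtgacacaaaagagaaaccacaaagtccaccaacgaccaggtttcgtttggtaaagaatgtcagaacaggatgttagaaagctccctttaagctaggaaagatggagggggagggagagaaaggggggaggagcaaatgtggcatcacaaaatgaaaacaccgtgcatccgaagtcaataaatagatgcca

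The table has no entry for C1qa or Tyrobp. C1qb held all 3 motifs, C1qc held GAGGAA and the M-box, Fcgr3 held GAGGAA and TGCTGA, and the letters of none of the 3 were in the Gpnmb window. Of 32851 promoter windows of the same length, 23.3% held GAGGAA, 16.1% TGCTGA and 3.25% the M-box. Of the 24 members with a promoter entry, 14 held GAGGAA, 6 TGCTGA and 2, C1qb and C1qc, the M-box. Members were counted as genes with a match in any of their windows, and by that count 25.9%, 18.02% and 3.72% of the 27025 genes in the table held the motifs. These matches describe letters and do not show binding.

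Libraries held 9665093 to 17447106 reads assigned to genes. Il5, the check on the labels, was at 337.9 to 447 CPM in IL5-Tg libraries and at 0 to 1.39 CPM in WT libraries, where CPM is a share of gene reads after TMM scaling. WT replicate 3 stood apart before any comparison. It had 10877 genes detected against 12759 to 14391 in the others, its 9 fibroblast markers summed to 15.3 CPM against 1861 to 4604 CPM in the other 6 libraries, and its 14 eosinophil markers summed to 8161 CPM against 4143 and 5176 CPM in the other WT libraries. Eosinophil markers summed to 5805 to 10786 CPM in IL5-Tg libraries. Of the 14, 11 were on the higher side in IL5-Tg, the rest on the lower side, and 3 were called higher by edgeR. A large part of each sum was 1 gene, Alox15, at 2370, 2437 and 4660 CPM in WT replicates 1 to 3 and 3272 to 6109 CPM in IL5-Tg libraries. Results are therefore given with and without WT replicate 3. Library values below follow the replicate order, 1 to 3 for WT and 1 to 4 for IL5-Tg.

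The 32 transcripts made up about 1 in 100 gene reads in both groups. Their share of gene reads was 1.24%, 1.28% and 0.587% in the WT libraries, and 1.06%, 0.778%, 1.36% and 1.40% in the IL5-Tg libraries. The group means were 1.04% ± 0.389 (SD, n = 3) and 1.15% ± 0.290 (SD, n = 4), so the difference between groups was smaller than the spread within either. WT replicates 1 and 2 each lay above the IL5-Tg mean, so the lower WT mean rested on WT replicate 3. Exact (Clopper-Pearson) 95% intervals were at most 0.0142 percentage points wide. They treat each read as an independent draw and cover no spread between libraries. Low counts were coarse in the WT libraries, as given below, so the intervals may be too narrow even for counting error. Tyrobp, Apoe and Lyz2 had the most reads. Without these 3 genes the means were 0.538% in WT, with WT replicate 3 included, and 0.734% in IL5-Tg libraries. No reference profile of pure macrophages was used, so this share was not turned into a number of cells.

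**Figure D1:**
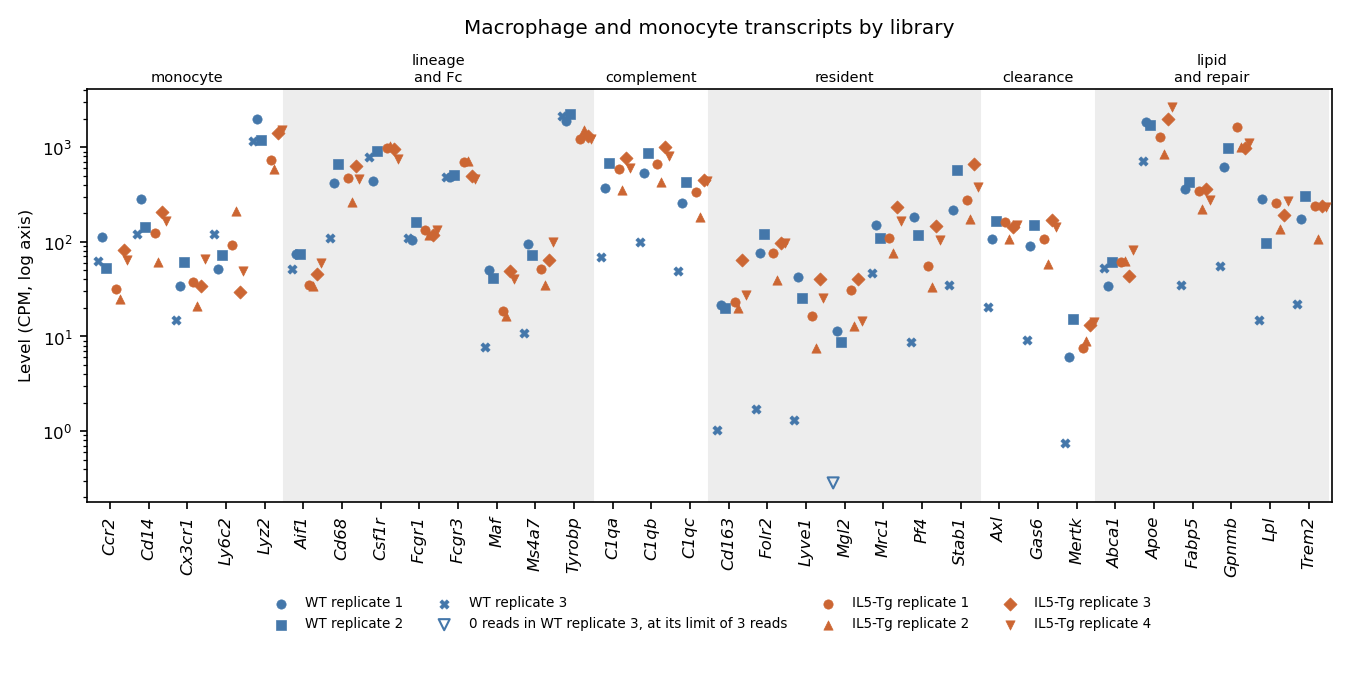
Level of each of the 32 transcripts in CPM on a log axis, by library, in blocks by role; blue symbols are the 3 WT libraries, orange symbols the 4 IL5-Tg libraries, and the open triangle marks Mgl2 in WT replicate 3, with 0 reads, at the limit of 3 reads (0.284 CPM). The blue crosses of WT replicate 3 lie lowest for 22 of the 32 transcripts, and for Tyrobp the groups do not overlap.

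No macrophage or monocyte transcript was called between IL5-Tg and WT libraries. By edgeR's quasi-likelihood test, adjusted over the 12428 genes tested, 0 of 32 passed an adjusted p of 0.05, where 0.410% of all tested genes did (0.338% higher and 0.0724% lower in IL5-Tg). At an unadjusted p under 0.05, 1 of 32 passed by edgeR, 1 by DESeq2 and 3 by limma-voom, where edgeR gave 9.04% of all tested genes. DESeq2 and limma-voom called 0 of 32. The log2 fold changes, positive where IL5-Tg was higher, ran from -0.67 for Tyrobp to 1.87 for Mgl2, with a median of 0.26 beside 0.03 for all tested genes. Of these, 24 were positive and 8 negative. Without WT replicate 3 the median was -0.05 beside -0.01 for all genes, 15 were positive, and still 0 of 32 were called, with 3 at an unadjusted p under 0.05 where 8.83% of all genes were (0.752% called). These 3 were Mgl2, Aif1 and Tyrobp. Groups did not overlap for 3 of 32 transcripts, where 9.36% of all tested genes did not overlap.

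**Figure D2:**
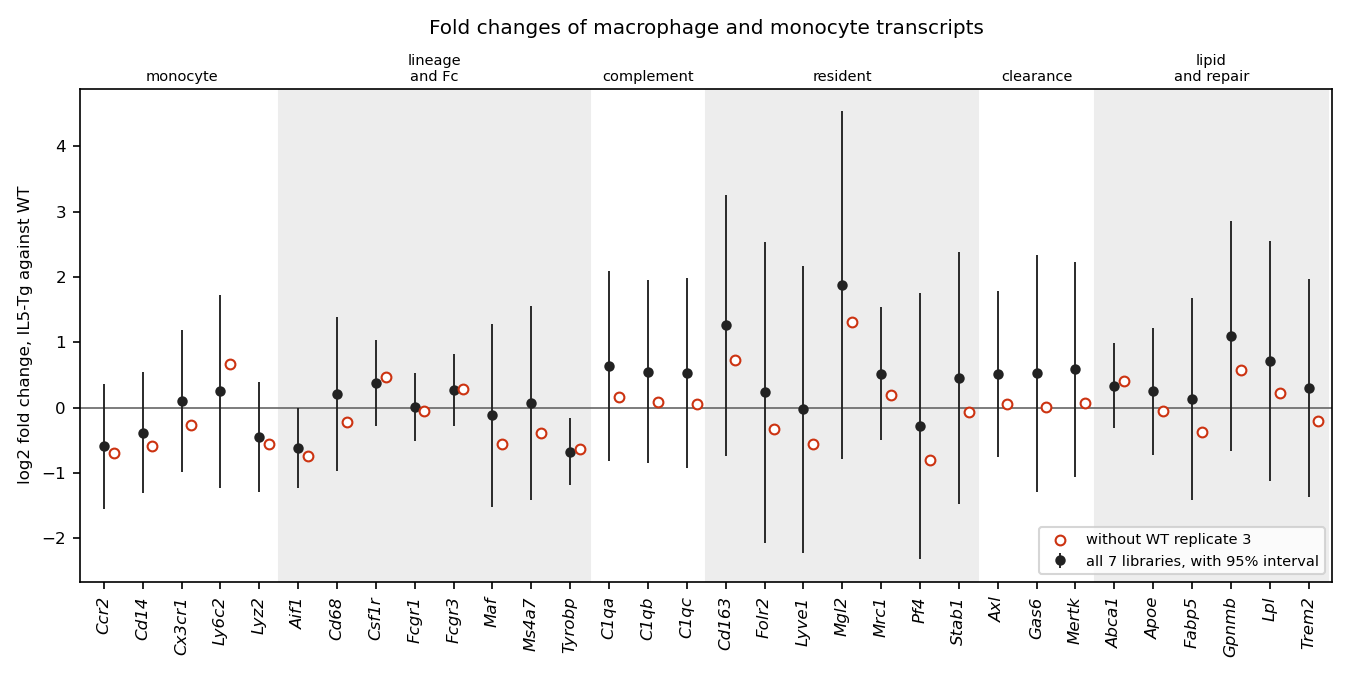
Log2 fold change of each transcript, IL5-Tg against WT, with its 95% interval from the edgeR fit of all 7 libraries (black) and the estimate without WT replicate 3 (red circles). Intervals are narrow for Fcgr1 (-0.51 to 0.53) and Tyrobp (-1.19 to -0.16), wide for Mgl2 (-0.80 to 4.54), and most red circles of resident, complement and lipid genes lie below the black points.

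Complement C1q marks mature macrophages, and its 3 chains assemble into the protein that starts the classical pathway. C1qa had 373, 674 and 68.4 CPM in the WT libraries, and 585, 349.6, 776 and 602 CPM in IL5-Tg. C1qb was at 531, 866 and 99.8 CPM in WT and at 666, 431, 1013 and 811 CPM in IL5-Tg libraries. C1qc was at 258, 426 and 48.8 CPM in WT and at 335, 182, 452 and 441 CPM in IL5-Tg libraries. For all 3 genes WT replicate 3 was lowest and IL5-Tg replicate 3 highest, and the groups overlapped. The log2 fold changes were 0.64 ± 0.64, 0.55 ± 0.61 and 0.53 ± 0.63 (SE) for C1qa, C1qb and C1qc, with edgeR adjusted p of 0.876, 0.894 and 0.901. The interval for C1qa ran from 0.568-fold to 4.26-fold, so it holds a rise of up to 4.26-fold as well as no difference. Without WT replicate 3 the values were 0.16, 0.08 and 0.06, and without WT replicate 2 they were 1.42, 1.25 and 1.23 (edgeR adjusted p = 0.297, 0.351 and 0.379). Of the reads of the 3 genes, C1qa took 31.5% to 36.9%, C1qb 42.0% to 46.0% and C1qc 18.9% to 23.8% over the 7 libraries, with WT replicate 3 at 31.5%, 46.0% and 22.5%.

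Among the lineage and Fc receptor genes, Tyrobp had the smallest p of the 32. Tyrobp, on chromosome 7 at 30413760 to 30417585, encodes DAP12, the adaptor through which TREM2 and other receptors signal, and per length it was the most abundant member, at 3146 CPM per kilobase of exon in WT and 1971 in IL5-Tg libraries. Its level was 1885, 2260.1 and 2149 CPM in the WT libraries, and 1222, 1527, 1300.1 and 1209 CPM in IL5-Tg. Every WT library was above every IL5-Tg library, as was so for 4.60% of all tested genes. The log2 fold change was -0.67 ± 0.23 (SE), with an edgeR adjusted p of 0.395, and -0.64 without WT replicate 3. Neutrophils also use DAP12, and neutrophil markers, 11 of 12 in the table, summed to 9296 to 10492 CPM in WT and 2530 to 4299 CPM in IL5-Tg libraries, although the gate removed Ly6G+ cells. Nearly all of that sum was Retnlg, called lower by edgeR, with means of 9663 CPM in WT (SD 742, n = 3) and 3235 CPM in IL5-Tg (SD 763, n = 4), and Ngp was the other called gene of the 8 tested, higher in IL5-Tg. Without WT replicate 3 edgeR called 4 of the neutrophil genes, with S100a8 and S100a9 also lower in IL5-Tg, at -3.62 and -3.87 (edgeR adjusted p = 0.000317 and 0.00126). With all libraries they were at -3.08 and -3.36 and not called (edgeR adjusted p = 0.407 and 0.316). In the WT libraries S100a8 was at 157, 65.1 and 2.36 CPM and S100a9 at 171, 43.2 and 5.77 CPM. In IL5-Tg libraries they ran from 5.43 to 10.8 and from 4.78 to 10.3 CPM. The part of neutrophil RNA in the Tyrobp level was not tested. The log2 difference of Fcer1g, a related adaptor of Fc receptors outside the 32, was -0.39 (edgeR adjusted p = 0.721).

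Aif1, which encodes the actin-binding protein IBA1, was also on the lower side in IL5-Tg libraries without passing. It was at 74.5, 74.9 and 52.0 CPM in WT and at 34.8, 34.4, 45.9 and 60.3 CPM in IL5-Tg libraries. IL5-Tg replicate 4 lay above WT replicate 3, so the groups overlapped. The log2 fold change was -0.61 ± 0.28 (SE; edgeR adjusted p = 0.552), and -0.75 without WT replicate 3 (edgeR adjusted p = 0.437). WT replicates 1 and 2 lay above every IL5-Tg library. Csf1r, the receptor for CSF1 and IL-34, stood at 438, 921 and 785 CPM in WT and 982, 1035, 947 and 743 CPM in IL5-Tg libraries. Its lowest library was WT replicate 1, unlike the C1q genes, and the log2 fold change was 0.37 ± 0.29 (SE; edgeR adjusted p = 0.815).

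The Fc gamma receptors overlapped between groups. Fcgr3, the low-affinity receptor, was at 484, 514 and 489 CPM in WT and 705, 712, 499 and 464 CPM in IL5-Tg libraries, where replicates 1 and 2 were high and replicates 3 and 4 near the WT level. Fcgr1, the high-affinity receptor CD64, had means of 125 ± 30.7 CPM (SD, n = 3) and 126 ± 9.43 CPM (SD, n = 4), with a 95% interval of the fold from 0.703 to 1.44. Fcgr3 shares sequence with other receptors of its family, so its read split is uncertain. For the lysosomal glycoprotein gene Cd68, the transcription factor gene Maf and the membrane protein gene Ms4a7 the log2 differences were 0.21, -0.12 and 0.08, and none passed (edgeR adjusted p = 0.955, 0.976 and 0.986). Cd68 ran from 109 to 658 CPM in WT and from 266 to 629 CPM in IL5-Tg libraries, Maf from 7.75 to 50.9 and from 16.3 to 48.6 CPM, and Ms4a7 from 10.8 to 94.9 and from 34.7 to 99.6 CPM. For all 3 genes WT replicate 3 was lowest.

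None of the 5 monocyte members passed by edgeR, adjusted or unadjusted. Ccr2, the receptor through which monocytes leave the bone marrow, was at 114, 52.4 and 62.4 CPM in WT and 31.95, 24.7, 81.0 and 64.2 CPM in IL5-Tg libraries. IL5-Tg replicates 1 and 2 were the lowest of the 7 and replicates 3 and 4 lay within the WT range, and the log2 difference was -0.59 ± 0.43 (SE), with an edgeR adjusted p of 0.794. Ly6c2, the Ly6C antigen of inflammatory monocytes, had another order, with 51.5, 71.8 and 120.03 CPM in WT and 93.5, 213, 29.2 and 49.4 CPM in IL5-Tg libraries. It was highest in IL5-Tg replicate 2 and second highest in WT replicate 3, and its log2 fold change was 0.25 ± 0.64 (SE; edgeR adjusted p = 0.956). Ly6c2 is a near-identical copy of Ly6c1, so the division of reads between them is uncertain. Ly6c1 was at 54.6, 53.0 and 0 CPM in WT and 41.0, 19.1, 54.9 and 43.9 CPM in IL5-Tg libraries.

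Lyz2, myeloid lysozyme, was at 1988, 1194 and 1156 CPM in WT and 728, 585, 1426 and 1503 CPM in IL5-Tg libraries. As with Ccr2, IL5-Tg replicates 1 and 2 were lowest, and the log2 fold change of -0.45 ± 0.38 (SE) had an edgeR adjusted p of 0.838. The endotoxin co-receptor gene Cd14 was lowest in IL5-Tg replicate 2, at 61.6 CPM, and highest in WT replicate 1, at 280.1 CPM. The fractalkine receptor gene Cx3cr1 ran from 15.0 CPM in WT replicate 3 to 65.3 CPM in IL5-Tg replicate 4. The log2 fold changes of Cd14 and Cx3cr1 were -0.39 and 0.10 (edgeR adjusted p = 0.890 and 0.974).

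Among the 7 genes of resident macrophages, 5 had positive and 2 negative log2 fold changes, and none passed. Mrc1, the mannose receptor, was at 150.5, 108 and 46.7 CPM in WT and 109, 76.2, 235 and 164 CPM in IL5-Tg libraries, so the groups overlapped. The log2 difference was 0.52 ± 0.46 (SE), with an edgeR adjusted p of 0.848, and 0.20 without WT replicate 3 (edgeR adjusted p = 0.949). Mgl2, a galactose-binding lectin of macrophages and dendritic cells, had 189, 83 and 0 reads in WT libraries, or 11.4, 8.76 and at most 0.284 CPM by a floor of 3 reads, and was at 31.3, 12.8, 40.5 and 14.4 CPM in IL5-Tg libraries. That floor may be too low in WT replicate 3, where the most common low count was 12 reads. Every IL5-Tg library was above every WT library, as was so for 4.76% of all tested genes. Its log2 fold change of 1.87 ± 1.15 (SE) had an edgeR adjusted p of 0.743, and was 1.31 without WT replicate 3 (edgeR adjusted p = 0.401). Leaving out WT replicate 1 gave 2.51 for Mgl2 (edgeR adjusted p = 0.624). Part of its reads may be shared with the related lectin gene Clec10a.

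Cd163, the haemoglobin scavenger receptor, was at 21.4, 19.9 and 1.04 CPM in WT and 23.0, 19.8, 64.6 and 27.7 CPM in IL5-Tg libraries. IL5-Tg replicate 3 was more than 2 times any other library, and the log2 fold change was 1.26 ± 0.86 (SE; edgeR adjusted p = 0.784). Without WT replicate 3 that of Cd163 was 0.73 (edgeR adjusted p = 0.721). The scavenger receptor gene Stab1 was likewise highest in IL5-Tg replicate 3, at 670 CPM, and ran from 35.1 to 571 CPM in WT. Folr2, a folate receptor, Lyve1, a hyaluronan receptor, and the chemokine gene Pf4 had log2 fold changes of 0.23, -0.03 and -0.29, with intervals from -2.08 to 2.54, -2.23 to 2.17 and -2.32 to 1.75. Folr2 ran from 1.70 to 120.2 CPM in WT and from 39.4 to 97.4 CPM in IL5-Tg libraries, Lyve1 from 1.32 to 42.2 and from 7.61 to 40.9 CPM, and Pf4 from 8.79 to 185 and from 33.7 to 147 CPM. In each case the lowest library of all was WT replicate 3 and the lowest of the IL5-Tg group was replicate 2. Platelets also hold Pf4.

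The dead-cell receptors and their ligand had groups that overlapped. Mean levels of Mertk were 7.33 ± 7.31 CPM (SD, n = 3) in WT and 10.9 ± 3.24 CPM in IL5-Tg (SD, n = 4). Axl had 97.9 ± 73.7 and 140 ± 23.8 CPM, and Gas6, the ligand that bridges both receptors to dying cells, 83.0 ± 70.5 and 120 ± 49.0 CPM. Their log2 fold changes were 0.58, 0.52 and 0.53 with all libraries and 0.07, 0.05 and 0.01 without WT replicate 3. Without WT replicate 2 they were 1.71, 1.18 and 1.30 for Mertk, Axl and Gas6 (edgeR adjusted p = 0.284, 0.325 and 0.490).

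Among the lipid and repair genes, Gpnmb, a glycoprotein of phagocytic macrophages on chromosome 6 at 49036546 to 49070929, was at 616, 991 and 56.0 CPM in WT and 1627, 1005, 992 and 1112 CPM in IL5-Tg libraries. Every IL5-Tg library was above every WT library, but IL5-Tg replicate 3 exceeded WT replicate 2 by less than 1 CPM. The log2 fold change was 1.09 ± 0.76 (SE; edgeR adjusted p = 0.790) and 0.57 without WT replicate 3 (edgeR adjusted p = 0.694). Without WT replicate 2 that of Gpnmb was 1.86 (edgeR adjusted p = 0.313). Apoe, the lipoprotein through which macrophages export cholesterol, was at 1837, 1701 and 717 CPM in WT and 1272, 851, 1977 and 2631 CPM in IL5-Tg libraries, and the highest and lowest IL5-Tg libraries were 3.09-fold apart. Abca1, the cholesterol exporter that loads it, had means of 49.4 ± 14.0 CPM (SD, n = 3) and 62.2 ± 15.8 CPM (SD, n = 4). Trem2, the lipid-sensing partner of DAP12, was at 241, 107, 240.5 and 233 CPM in IL5-Tg libraries and at 22.1 to 305 CPM in WT. Lpl, lipoprotein lipase, and the fatty acid carrier gene Fabp5 had log2 fold changes of 0.71 and 0.13. Lpl ran from 14.9 to 280.3 CPM in WT and from 137 to 271 CPM in IL5-Tg libraries, and Fabp5 from 35.3 to 429 and from 222 to 364 CPM. For Lpl the log2 value was 0.22 without WT replicate 3 and 1.94 without WT replicate 1 (edgeR adjusted p = 0.943 and 0.412). None of these passed with all libraries (edgeR adjusted p from 0.790 for Gpnmb to 0.976 for Fabp5).

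The transcripts split in how they behaved in WT replicate 3, the library with the least fibroblast RNA. WT replicate 3 was the lowest library for 22 of 32 members (68.8%), where it was lowest for 35.1% of all tested genes. In it 19 of 32 members (59.4%) were under 25% of the mean of WT replicates 1 and 2, where 22.2% of all tested genes were. This limit was set after the values were seen, and the members nearest to it were Cd68 at 20.2% and Cx3cr1 at 31.4%. Below it were 3 of 3 C1q genes, 3 of 3 clearance genes, 6 of 7 resident genes, 4 of 6 lipid and repair genes, 3 of 8 lineage and Fc genes and 0 of 5 monocyte genes. Folr2 was at 1.74% of that mean, Lyve1 at 3.90%, Cd163 at 5.04%, Gpnmb at 6.97%, Trem2 at 9.22%, and C1qa at 13.1%.

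The other 13 members kept 31.4% or more. Ly6c2 was at 195%, Csf1r at 115%, Abca1 at 112%, Tyrobp at 104%, Fcgr3 at 98.0%, Fcgr1 at 83.9%, Ccr2 at 75.1%, Lyz2 at 72.7%, Aif1 at 69.6%, Cd14 at 56.7%, Apoe at 40.5% and Mrc1 at 36.1%. Beside these, 8 of 9 fibroblast markers were under 25% with a median of 0.405%, and 0 of 14 eosinophil markers were, with a median of 151%. Of 14 further macrophage genes outside the 32, 6 were, with a median of 30.5%. Under 25% were also 6 of 8 muscle markers (median 3.70%), 3 of 5 endothelial (19.3%), 4 of 7 neutrophil (22.2%) and 4 of 11 dendritic and class II genes (42.1%). So were 2 of 15 further monocyte genes (median 132%) and 1 of 7 mast cell and basophil genes (110%). These counts take genes with a mean of at least 1 CPM in WT replicates 1 and 2. The part of fibroblast RNA, or of RNA from the eosinophils themselves, in these levels was not tested. Low counts were coarse in WT replicate 3, where genes with few reads most often had 12, while this number was 5 or 8 in the other WT libraries and 1 to 4 in IL5-Tg. Mertk, Cd163, Lyve1 and Folr2 had 8, 11, 14 and 18 reads there.

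**Figure D3:**
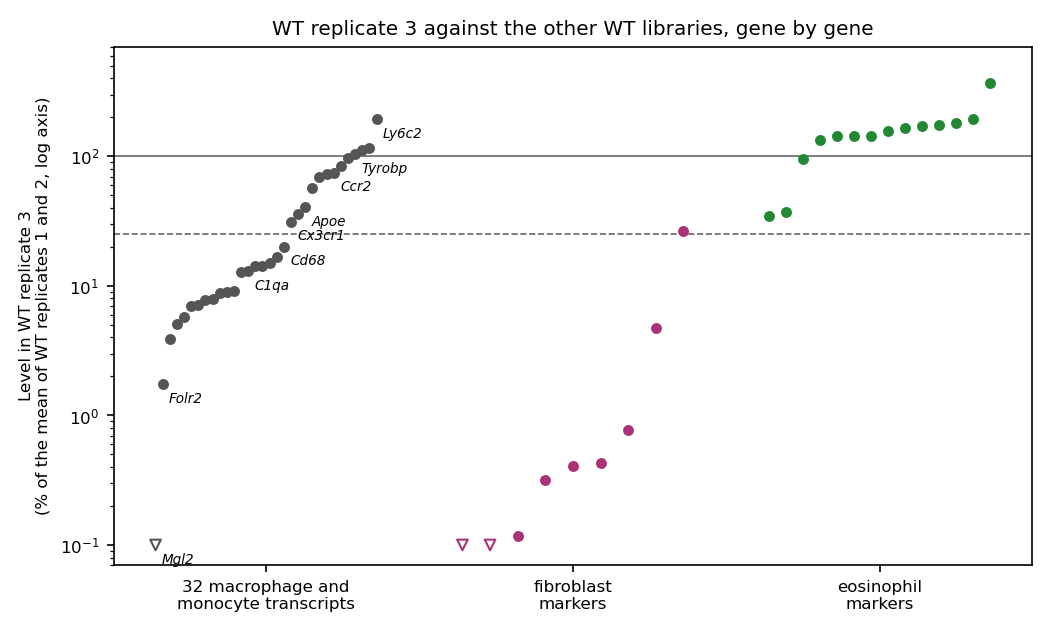
Level of each gene in WT replicate 3 as a percent of the mean of WT replicates 1 and 2, on a log axis, for the 32 transcripts (grey), fibroblast markers (purple) and eosinophil markers (green) with a mean of at least 1 CPM in those libraries; the solid line is 100%, the dashed line 25%, and open triangles at the bottom are genes with 0 reads in WT replicate 3. Apart from Mgl2, a grey triangle with 0 reads, the grey points run from Folr2 at 1.74% to Ly6c2 at 195%. The medians are 0.405% for the purple and 151% for the green points.

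Set against the C1q genes within each library, a scale that needs no normalization, Cd68, Trem2, Axl, Stab1, Gas6 and Fabp5 stayed within about a 2-fold range. The other members outside the C1q genes ranged more widely. For every 100 reads of C1qa, C1qb and C1qc together there were 24.9 to 50.1 reads of Cd68, 10.2 to 15.5 of Trem2, 6.37 to 11.0 of Axl and 16.2 to 29.9 of Stab1 over the 7 libraries. Gas6 had 4.27 to 7.76 and Fabp5 15.0 to 31.2 such reads. Folr2 had 4.10 to 6.52 such reads in 6 libraries and 0.784 in WT replicate 3. These ratios depend on gene length and describe libraries, not the order of the genes.

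Other ratios were far from even. Tyrobp had 162, 115 and 990.4 reads per 100 C1q reads in the WT libraries, and 77.1, 159, 58.0 and 65.2 in IL5-Tg. Csf1r had 37.7, 46.9 and 362 in WT and 61.9, 108, 42.2 and 40.1 in IL5-Tg libraries. Ly6c2 had 4.43, 3.65 and 55.3 in WT and 5.90, 22.1, 1.30 and 2.66 in IL5-Tg libraries. WT replicate 3 was highest and IL5-Tg replicate 2 was highest of its group for Csf1r, Ly6c2 and Tyrobp, and these were the libraries with the lowest summed C1q level of each group, at 217 and 962 CPM. Gpnmb differed from both sets, with 53.0, 50.4 and 25.8 reads per 100 C1q reads in WT and 103, 104, 44.2 and 60.0 in IL5-Tg libraries, so that IL5-Tg replicates 1 and 2 were high and replicates 3 and 4 near WT replicates 1 and 2.

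**Figure D4:**
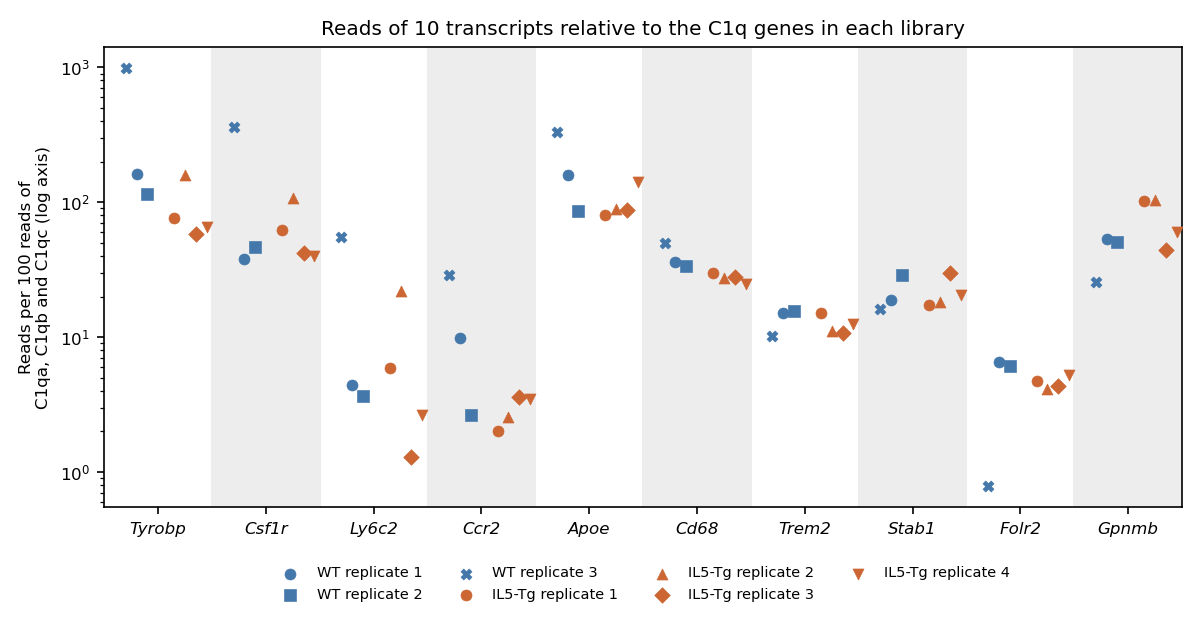
Reads of 10 transcripts per 100 reads of C1qa, C1qb and C1qc in the same library, on a log axis; blue symbols are WT and orange symbols IL5-Tg libraries. Cd68, Trem2 and Stab1 keep a narrow band, the cross of WT replicate 3 is far above the rest for Tyrobp (990.4), Csf1r (362) and Ly6c2 (55.3) and below them for Folr2 (0.784), and Gpnmb is highest in IL5-Tg replicates 1 and 2.

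Lists of related genes that hold none of the 32 showed few calls. Over all tested genes edgeR called 0.410%, and 9.04% had an unadjusted p under 0.05. None of 13 tested further macrophage genes was called by edgeR, 0 of them at an unadjusted p under 0.05 and 0 by edgeR without WT replicate 3, with a median log2 fold change of 0.12. The named genes are the smallest p there, Cd180 at 0.52 and Ms4a6c at -0.55 (edgeR adjusted p = 0.586 and 0.717). Of 15 further monocyte genes 0 were called and 5 had an unadjusted p under 0.05 by edgeR, with a median of -0.30. Ifitm6, an interferon-inducible membrane protein gene, had a WT mean of 11.8 ± 2.13 CPM (SD, n = 3) and an IL5-Tg mean of 2.59 ± 0.423 (SD, n = 4), a log2 difference of -2.19 with an edgeR adjusted p of 0.0922, and Ms4a4c was at -1.53 (edgeR adjusted p = 0.215).

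Signalling partners gave the same count. Of 12 genes of the CSF1R pathway 0 were called (1 at an unadjusted p under 0.05 by edgeR, median 0.25), and the ligand gene Csf1 was at -0.53 and the adaptor gene Dok2 at 0.78 (edgeR adjusted p = 0.544 and 0.583). Of 16 genes around ITAM adaptors such as DAP12, 0 were called (2 at an unadjusted p under 0.05 by edgeR, median -0.07). Clec7a, the beta-glucan receptor Dectin-1, was at 106 ± 59.1 CPM in WT and 32.6 ± 8.76 CPM in IL5-Tg libraries (edgeR adjusted p = 0.126), and Trem1 at 1.17 (edgeR adjusted p = 0.459). Of 14 further complement genes 0 were called (3 at an unadjusted p under 0.05 by edgeR, median 0.55). Cfp, properdin, was at 353 ± 58.3 and 889 ± 171 CPM (edgeR adjusted p = 0.0857) and Itgax at 1.76 (edgeR adjusted p = 0.405).

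Of 16 tested genes of dead-cell clearance 1 was called, Thbs1, the matrix protein thrombospondin-1, which fell by 2.29 on the log2 scale (edgeR adjusted p = 0.0497). Thbs1 was at 3649, 2461 and 8575 CPM in WT and 1171, 1129, 760.03 and 956 CPM in IL5-Tg libraries, highest in WT replicate 3. The call was made under 6 of 16 alternatives, with log2 values from -2.59 to -1.58 in the 7 fits that leave out 1 library. Without WT replicate 3 the log2 difference was -1.58 (edgeR adjusted p = 0.0268). Without WT replicate 1 Thbs1 did not pass, at -2.45 (edgeR adjusted p = 0.121), nor without IL5-Tg replicate 1, 2, 3 or 4, at -2.36, -2.35, -2.18 and -2.27 (edgeR adjusted p = 0.216, 0.200, 0.200 and 0.194), so its size in these 5 fits stayed near the -2.29 of all libraries. The median of that list was 0.32. Of 20 genes of sterol and lipid handling 0 were called and 4 had an unadjusted p under 0.05 by edgeR. Olr1, a receptor for oxidised lipoprotein, was at 203 ± 108 CPM in WT and 49.5 ± 17.98 CPM in IL5-Tg libraries (edgeR adjusted p = 0.0832). Of 18 repair genes 0 were called (3 at an unadjusted p under 0.05 by edgeR, median 0.38), with Vegfa at 1.48 and Cd9 at -0.98 (edgeR adjusted p = 0.403 and 0.446). Vegfa, a growth factor for vessels, passed without WT replicate 3, at 2.18 (edgeR adjusted p = 0.0444). Of 17 inflammatory genes 0 were called, 8 had an unadjusted p under 0.05 by edgeR, and the median was -0.86. Marcksl1 was at 138 ± 28.6 and 55.2 ± 13.2 CPM (edgeR adjusted p = 0.0857), and Tnf at 60.3 ± 39.1 and 19.2 ± 3.17 CPM (edgeR adjusted p = 0.195). Fpr2, a formyl peptide receptor, was called without WT replicate 3 (-2.81, edgeR adjusted p = 0.0232) and not with it (0.231). DESeq2 called 1 of the further monocyte genes, 1 around ITAM adaptors, 2 of complement, 1 of clearance, 2 of sterol and lipid handling, 4 inflammatory genes and 0 in the macrophage, CSF1R and repair lists. Over all genes DESeq2 called 141 higher and 84 lower, of the 12428 that passed the count filter. Limma-voom called 0 in all 9 lists. Many genes of these lists are also made by granulocytes.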

How the data were processed

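RNA of eosinophils sorted from mouse muscle was measured in 3 WT and 4 IL5-Tg libraries, grouped by the genotype in the labels. The authors deposited un-normalized counts, whole numbers for each gene symbol and library. Libraries were stranded mRNA libraries per the labels' protocols. The tools listed by the submitters' processing notes are STAR, Bowtie and bcl2fastq 2.20, and the build is mm10. Which program counted reads, with which annotation and strand setting, is not given in the sources used here. Rows for reads of no feature (15.6% to 18.2% of each WT and 9.15% to 13.0% of each IL5-Tg library) and ambiguous reads (0.750% to 0.943%) were left out of library sizes. The groups did not overlap in the share of no feature, nor in the most common low count. Such differences between libraries cannot be told apart from genotype here.

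All genes were fitted together with edgeR 4.0.16 (R 4.3.3): filterByExpr by group, TMM, robust quasi-likelihood F test, genotype as the only term, Benjamini-Hochberg adjustment over the 12428 tested genes, called under 0.05. The common biological coefficient of variation was 52.5%. Standard errors come from the fold change and F statistic, intervals from these and the degrees of freedom of the fit. Levels are CPM on TMM-scaled library sizes, and levels per kilobase use the merged exon length of GENCODE vM21. The procedure was checked on simulated counts. Alternatives were DESeq2 1.42.0, limma-voom 3.58.1, other scalings and filters, a block, a covariate and leaving out each library. Replicate numbers only name libraries.

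The members and lists were chosen with earlier results of these data known. Genes named with values for each library were C1qa, C1qb, C1qc, Csf1r, Ly6c2, Ccr2, Mrc1, Lyz2, the 8 members of smallest p and the 3 of highest level per length. From the other lists called genes, or the 2 of smallest p, were named, apart from 1 gene that is not reported here. Fcer1g, Ly6c1, Siglecf, Alox15, Ear1, Ear2, Ear6, Adgre1, Fpr2, Ngp, Retnlg, S100a8 and S100a9, and the values of Fcgr3 for each library, were chosen after their values were seen.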

Additional observations from a re-analysis of the deposited data

Results flagged for a closer look

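Trem2 in IL5-Tg replicate 2 was at 107 CPM, while the other 3 IL5-Tg libraries lay between 233 and 241 CPM. Its gap to the nearest library was 0.937 of the range of the group, above Dixon's 95% critical value for 4 samples. No other of the 32 transcripts met this limit in the IL5-Tg group, and chance alone flags about 1 in 20 groups. With the rule applied to all 32, 1 flag is no more than chance alone would give. The summed level of C1qa, C1qb and C1qc was also lowest of the group in that library, at 962 CPM.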

How the results depend on the processing

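None of the 32 transcripts was called under any of the 16 alternatives, and 0 to 7 had an unadjusted p under 0.05, with 7 when the mean level of 16 other macrophage genes was a covariate. The share of all genes at that limit was not computed for the covariate fit, which also called more genes. The 7 therefore have no background beside them and are not read as a result. Over all genes 42 were higher and 9 lower. DESeq2 gave 141 and 84, limma-voom 16 and 6, the covariate 94 and 27, no count filter 56 and 16, and leaving out each library 14 to 79 higher and 1 to 31 lower. Without Lyz2, Apoe and Tyrobp the mean share of gene reads was 0.538% in WT, with WT replicate 3 included, and 0.734% in IL5-Tg libraries. The shared start of the sample titles, used as a replicate block, gave 46 higher and 6 lower and a median log2 fold change of the 32 of 0.04. It joins WT replicate 1 with IL5-Tg replicate 3 and WT replicate 2 with IL5-Tg replicate 4. The starts of WT replicate 3 and of IL5-Tg replicates 1 and 2 occur in 1 group only. Under the block the group difference therefore rests on the joined libraries. Deviations from the group means correlated at 0.175 and -0.0233 for the joined libraries and at -0.23 for IL5-Tg replicates 1 and 2, over 12428 genes. With so few libraries in each group these correlations cannot show whether a start marks a pairing. The block was kept as an alternative only.

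Log2 fold changes that changed sign, none of them called, were these. Under the replicate block they were -0.68 for Ly6c2, -0.05 for Ms4a7, -0.04 for Fcgr1, -0.05 for Fcgr3 and -0.31 for Fabp5. Under limma-voom they were -0.06 for Ly6c2, -0.03 for Cx3cr1, -0.06 for Ms4a7 and 0.06 for Lyve1, and under RLE scaling and DESeq2 Lyve1 was at 0.00. With the covariate they were -0.09 for Cx3cr1, -0.01 for Apoe and -0.02 for Fcgr1. Leaving out 1 library gave -0.50 to 0.67 for Ly6c2, -0.56 to 0.32 for Maf, -0.26 to 0.70 for Cx3cr1, -0.06 to 0.48 for Apoe, -0.40 to 0.59 for Ms4a7, -0.21 to 1.10 for Trem2 and -0.10 to 0.25 for Fcgr1. The range was -0.23 to 0.82 for Cd68, -0.64 to 0.08 for Cd14, -0.33 to 1.03 for Folr2, -0.56 to 0.76 for Lyve1, -0.81 to 0.43 for Pf4, -0.06 to 1.61 for Stab1 and -0.38 to 0.64 for Fabp5. The cause was not tested. Intervals of the 32 had a median half-width of 1.42 on the log2 scale, which sets what these libraries can show.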

Other observations

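Ly6c2 was highest within each group in the library with the highest summed level of the 14 eosinophil markers. A large part of that sum was Alox15, and not all 14 followed this order. Ear2 and Ear6 were lowest of the WT libraries in WT replicate 3. Ear1 was highest of the IL5-Tg libraries in replicate 1, and Ear2 and Ear6 in replicate 3. IL5-Tg replicate 2 and WT replicate 3 had Ly6c2 at 213 and 120.03 CPM, Siglecf at 857 and 648 CPM, and Alox15, a lipoxygenase of eosinophils, at 6109 and 4660.1 CPM. Ccr2 was at 24.7 and 62.4 CPM there. Adgre1, the F4/80 antigen that mouse eosinophils also carry, was likewise highest in these libraries, at 2236 and 2459 CPM against 1287 to 1697 CPM in the other 5. The part of eosinophil RNA in the Ly6c2 level was not tested.

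IL5-Tg replicates 1 and 2 had Itgax, the integrin CD11c, at 588 and 765 CPM, where IL5-Tg replicates 3 and 4 had 131 and 185 CPM and WT libraries 109.8 to 137 CPM. They were also the pair with the most Gpnmb reads per 100 C1q reads (103 and 104) and the least Ccr2 (31.95 and 24.7 CPM). Their titles share a start that no other title has, and what it stands for is not given in the labels.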
